A study of Homo sapiens with 8 samples.

Results

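The genes described here are 33 targets and partners of the transcription factor ATF4, amino acid transporters among them, measured by RNA sequencing in 22Rv1 cells. They were taken by symbol from a given list of such genes, from which serine, proline and tRNA synthetase genes had been left out. All 33 were found among the 58735 gene identifiers of the count files. 22Rv1 is a human castration-resistant prostate cancer line that expresses the androgen receptor. 4 libraries came from cells given PCC0208017, which the submitters describe as an inhibitor of the kinase MARK3 (labelled MARK3i), and 4 from cells given the vehicle DMSO (labelled Control). The sources used here give neither dose nor duration. Nothing in the labels says that replicates came from separate cultures, so the p-values reflect only how much these samples varied, which may be technical variation. MARK3 was not removed by other means in any group, so effects of its inhibition and other effects of the compound cannot be told apart.

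ATF4 is the main effector of the integrated stress response. When amino acids run short, unfolded proteins build up in the endoplasmic reticulum or heme is lacking, a kinase phosphorylates the translation factor eIF2, which lowers general protein synthesis and lets ATF4 mRNA be translated despite its inhibitory upstream open reading frames. ATF4 then pairs with C/EBP proteins and binds C/EBP-ATF elements near genes for amino acid import, amino acid synthesis and feedback on the pathway. In prostate cancer cells, androgen signalling and MYC are also known to act on several amino acid transporter genes. ATF4 activity is set largely by translation, and its protein was not measured here.

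Total counts were 13517289 to 21271127 per MARK3i library and 12672817 to 13386143 per Control library, so every MARK3i library was deeper than every Control. Reads from mitochondrial genes made up 6.66% to 7.05% of MARK3i counts, against 6.43% to 6.61% of Control counts. The 7 prostate epithelial markers summed to 1894 to 1996 CPM (counts per unit of library size after TMM scaling, in the usual CPM units) in MARK3i libraries, against 2770 to 2850 CPM in Controls, and 8 of 9 markers of immune, fibroblast and endothelial cells stayed under 1 CPM in every library. CD3E, PECAM1 and CDH5 had no count in any library. The exception was the collagen gene COL1A1, at 18.0 ± 3.04 CPM in MARK3i and 11.3 ± 2.20 CPM in Control libraries (SD, n = 4 each). The part of these differences in the results below was not tested. Among Controls, replicates 1 and 2 resembled each other more than they did replicates 3 and 4, with counts differing by a chi-square of 1.74 per degree of freedom within the first pair and 1.69 within the second, against 3.48 to 4.72 across them.

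Relative to the other mRNAs, treated cells held less mRNA of most ATF4-linked genes. Of the 33 genes, all of which passed the filter on low counts, 22 (66.7%) were lower and 3 (9.09%) were higher in MARK3i than in Control libraries, and 8 did not pass the test. Across all 16452 genes tested, 58.0% were called, 28.3% lower and 29.8% higher. A gene was called where the quasi-likelihood test of edgeR gave a Benjamini-Hochberg adjusted p under 0.05, over all tested genes, and every adjusted p below comes from that test. The median log2 fold change of the 33 genes, MARK3i over Control, was −0.59, against 0.02 for all tested genes. For 23 of the 33, every MARK3i library lay below every Control, as it did for 25.1% of all tested genes. For 2, every MARK3i library lay above every Control, against 25.8% of all tested genes. 9 of the 33 fell by at least 1 on the log2 scale, which 6.09% of all tested genes did. BCAT1 passed the filter through the Control libraries alone, being under its minimum of 0.743 CPM in every MARK3i library. It is counted in the 22, the 23 and the 9 above, to which it adds no support. Among the other 32 genes 21 were lower and 3 higher (median −0.52). In sequencing of whole cultures, fewer cells expressing a gene and less of its RNA per cell cannot be told apart.

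Library scaling mattered for small changes. Without scaling factors, on total counts, the median change of all tested genes was 0.13, 21 of the 33 genes were lower and 5 were higher, and across all tested genes 3596 were lower and 6274 higher, against 4652 lower and 4897 higher on the TMM scale. The genes that crossed the threshold were ATF4, ATF3 and VLDLR, as given below. No gene among the 22 lower or 3 higher ones changed direction under any of the 14 alternatives run.

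**Figure D1:**
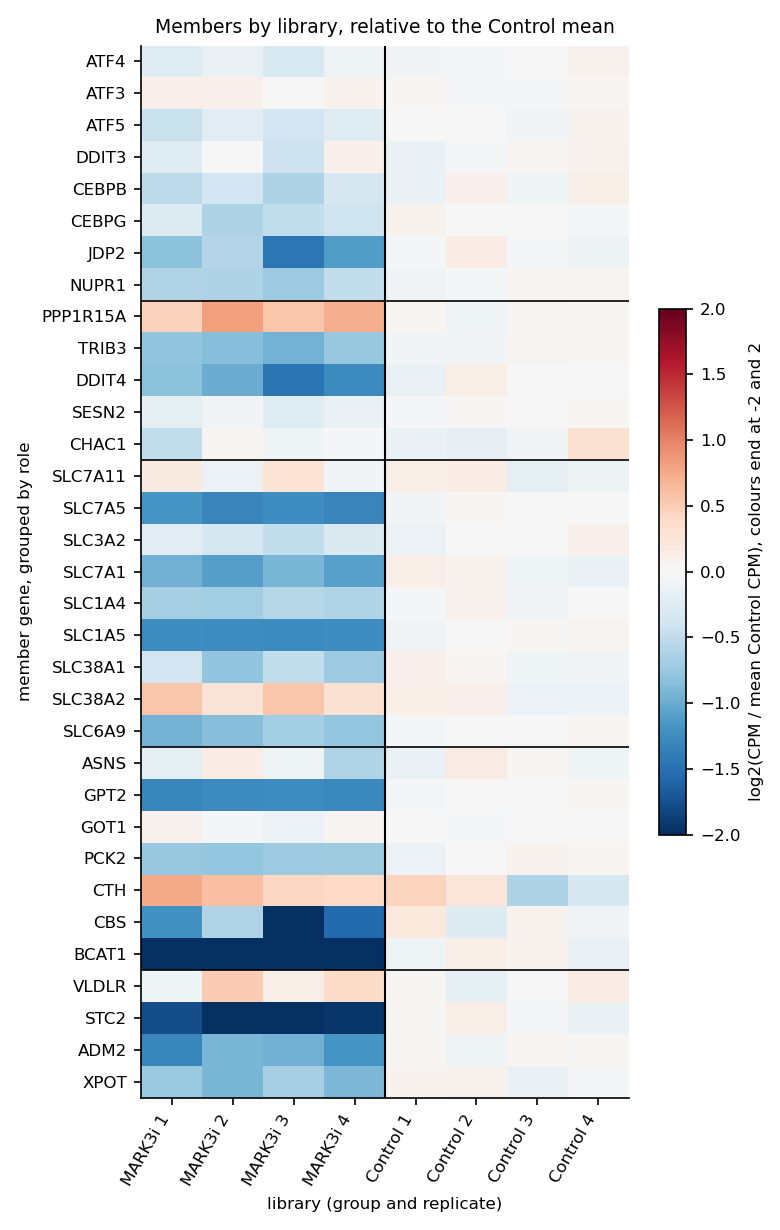
Heat map of the 33 genes (rows, grouped by role) in the 4 MARK3i libraries (left) and 4 Control libraries (right); colour is log2 of CPM over the mean Control CPM, with colours ending at −2 and 2. Most rows are blue across all 4 MARK3i libraries, deepest for BCAT1 and STC2, while PPP1R15A and SLC38A2 are red in all 4.

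The promoters of these genes were searched for TGATGNAA, the core of the C/EBP-ATF element, on either strand of the 250 bases before and 50 bases after each start site in RefSeq (GRCh38.p14). Promoters were found for 30 of the 33 genes, the others being SLC7A11, NUPR1 and GPT2. A match was present for 12 of the 30 genes (40.0%), against 4.46% of 27305 genes with a promoter in the same table. Because a gene can have several start sites, the shares per start site were also counted, and these were 22.2% of 54 and 3.62% of 35116. Matches were found for 8 of the 20 genes that were lower, 0 of the 3 that were higher and 4 of the 7 that did not pass. The genes had been listed as ATF4 targets from general knowledge, which includes knowledge of such elements, so the excess describes the list and is not evidence about the treatment.

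The 12 windows with a match are shown because they show which genes match in the searched bases and how alike the matches are. The values of these genes follow. A match does not show that ATF4 binds there, and elements outside the searched bases were not looked for. Each is 30 bases of the gene's own strand, 5′ to 3′, with the match in capitals. TGATG marks a copy in the direction of the gene, and CATCA a copy on the opposite strand.
SLC1A5 (chr19:46784893-46784922, minus strand): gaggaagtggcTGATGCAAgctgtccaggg
SLC7A1 (chr13:29595663-29595692, minus strand): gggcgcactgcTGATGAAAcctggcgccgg
SLC1A4 (chr2:64989381-64989410, plus strand): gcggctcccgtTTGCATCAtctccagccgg
SLC38A1 (chr12:46266502-46266531, minus strand): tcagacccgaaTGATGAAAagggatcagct
SLC3A2 (chr11:62881719-62881748, plus strand): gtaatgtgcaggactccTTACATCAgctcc
CEBPG (chr19:33374060-33374089, plus strand): cgcgcggcgtcTGATGCAAcctgccggcaa
JDP2 (chr14:75427995-75428024, plus strand): atagccggggcTGATGCAAcccgtcccgcc
BCAT1 (chr12:24949131-24949160, minus strand): tgtcttcctgcTGATGCAAtccgctaggtc
ASNS (chr7:97872458-97872487, minus strand): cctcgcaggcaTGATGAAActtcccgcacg
ATF3 (chr1:212565205-212565234, plus strand): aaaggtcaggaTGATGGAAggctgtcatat
CHAC1 (chr15:40953251-40953280, plus strand): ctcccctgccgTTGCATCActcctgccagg
GOT1 (chr10:99430804-99430833, minus strand): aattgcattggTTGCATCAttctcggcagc
The first 8 belong to genes that were lower and the last 4 to genes that did not pass. BCAT1, among the 8, entered the test through the Control libraries alone. The copies of SLC1A5, CEBPG, JDP2 and BCAT1 read TGATGCAA, and those of SLC1A4, CHAC1 and GOT1 hold the same letters on the opposite strand, so 5 of the 8 lower genes and 2 of the last 4 carry this form. Each gene had a match at 1 start site, which was the outermost RefSeq start for 5 genes. It lay downstream of the outermost one for the other 7, SLC1A5, SLC1A4, SLC38A1, SLC3A2, CEBPG, JDP2 and BCAT1.

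Transcription factor genes fell modestly, with 6 of 8 lower, 0 higher and 2 not passing. ATF4 itself (ENSG00000128272; chr22:39519695-39522683, plus strand, hg38) had 459, 500.0, 441 and 513 CPM in MARK3i libraries 1 to 4, against 524, 531, 547 and 582 CPM in Control libraries 1 to 4. The groups did not overlap, but the highest MARK3i library and the lowest Control were close. The log2 fold change was −0.19 ± 0.06 (SE, n = 4 per group; adjusted p = 0.00726), a 1.14-fold lower level. On total counts it was −0.09 ± 0.05 and the call ended (adjusted p = 0.176).

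NUPR1, a small stress-induced cofactor of transcription, showed a clearer difference. It had 139, 138, 128 and 150.2 CPM in MARK3i libraries, against 201, 207, 217 and 218 CPM in Controls, a log2 fold change of −0.60 ± 0.06 (adjusted p = 3.37e-09). CEBPG, which encodes a C/EBP protein that heterodimerises with ATF4, had 86.4, 68.0, 74.5 and 78.9 CPM in MARK3i libraries, against 109, 104, 103 and 101 CPM in Controls, and changed by −0.44 ± 0.07 (adjusted p = 5.25e-06). All MARK3i libraries of both genes lay below all Controls. CEBPB, another C/EBP partner, averaged 48.4 ± 4.21 CPM in MARK3i and 66.6 ± 5.83 CPM in Control libraries (SD, n = 4 each) and changed by −0.46 ± 0.08 (adjusted p = 1.36e-05). ATF5, a relative of ATF4 with a similar translational control, averaged 56.2 ± 4.40 CPM in MARK3i and 70.1 ± 2.43 CPM in Control libraries and changed by −0.31 ± 0.07 (adjusted p = 0.000316). ATF5 shares 19.5% of its exonic bases with NUP62 on the opposite strand, a gene that was itself lower (−0.58 ± 0.06), and the sources used here do not say if counting was by strand. JDP2, which encodes a repressor of the AP-1 and ATF family, changed by −0.92 ± 0.21 (adjusted p = 0.00055) on few reads, 28, 51, 18 and 23 counts in MARK3i and 43, 48, 41 and 41 in Control libraries.

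The stress factor genes DDIT3 and ATF3 did not pass the test. DDIT3, which encodes CHOP, a factor tied to cell death in prolonged stress, had 25.0, 29.6, 22.2 and 31.7 CPM in MARK3i libraries, against 27.0, 28.7, 30.8 and 31.4 CPM in Controls. The groups overlapped, with MARK3i replicate 4 above every Control, and the log2 fold change of −0.12 ± 0.10 (adjusted p = 0.309) had a 95% interval of −0.31 to 0.08. DDIT3 shares 27.2% of its exonic bases with MARS1 on the opposite strand, which averaged 141 CPM in MARK3i and 204 CPM in Control libraries. Counting without strand could have added MARS1 reads to DDIT3 or left out reads of the shared bases, depending on settings that are not stated. ATF3, an inducible factor that acts mostly as a repressor, averaged 45.9 ± 1.25 CPM in MARK3i and 43.8 ± 1.07 CPM in Control libraries (SD, n = 4 each), with overlapping libraries. Its log2 fold change was 0.07 ± 0.07 (adjusted p = 0.389), and 0.17 ± 0.06 on total counts, where it was called higher (adjusted p = 0.0258).

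The 5 genes of feedback and stress signalling were divided, 2 lower, 1 higher and 2 short of the threshold. TRIB3 (chr20:362835-397559, plus strand), a pseudokinase that binds ATF4 and restrains it, had 145, 139, 129 and 149 CPM in MARK3i libraries, against 242, 242, 260.1 and 257 CPM in Controls. All 4 MARK3i libraries were far below the lowest Control, with a log2 fold change of −0.83 ± 0.06 (adjusted p = 5.71e-12). DDIT4, or REDD1, an inhibitor of the growth kinase complex mTORC1, had 16.2, 14.5, 10.5 and 11.9 CPM in MARK3i libraries, against 26.0, 31.4, 28.7 and 29.1 CPM in Controls. It fell 2.16-fold (−1.11 ± 0.11, adjusted p = 4.22e-09), and the MARK3i libraries, although all below the Controls, varied more around their mean.

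PPP1R15A was the higher gene of this group. It encodes GADD34, the subunit that directs protein phosphatase 1 to eIF2 and so ends the stress response. Its level (chr19:48872212-48876059, plus strand) was 52.0, 66.3, 55.5 and 62.1 CPM in MARK3i libraries, against 38.7, 35.5, 38.2 and 38.1 CPM in Controls, with every MARK3i library above every Control. The log2 fold change was 0.65 ± 0.08 (adjusted p = 1e-07), 1.57-fold higher. SESN2, a leucine sensor that restrains mTORC1, had 28.6, 31.3, 27.7 and 29.9 CPM in MARK3i libraries, against 31.6, 33.1, 32.7 and 33.2 CPM in Controls. These did not overlap, yet the small difference (−0.15 ± 0.07, 95% interval −0.30 to 0.00) did not pass (adjusted p = 0.0897). CHAC1, a glutathione-degrading enzyme, had 5.23, 7.60, 6.93 and 7.19 CPM in MARK3i libraries, against 6.74, 6.57, 6.97 and 9.13 CPM in Controls, with overlapping groups (−0.12 ± 0.15, adjusted p = 0.507).

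Amino acid transporter genes held several of the largest and most even differences. 7 of the 9 were lower and 1 was higher, SLC7A11 was not called, and the median log2 fold change was −0.63. SLC7A5 (chr16:87830023-87869507, minus strand) encodes LAT1, which brings in leucine and other large neutral amino acids. It had 89.0, 80.8, 85.0 and 80.8 CPM in MARK3i libraries, against 194, 207, 202 and 202 CPM in Controls. It was 2.40-fold lower (−1.26 ± 0.06, adjusted p = 1.85e-15), and no MARK3i library came near a Control. Its partial copy SLC7A5P1, to which some of its reads could be assigned, averaged 0.847 CPM in MARK3i and 1.66 CPM in Control libraries.

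SLC1A5 (chr19:46774883-46788594, minus strand), the glutamine transporter ASCT2, had 127, 126, 125 and 128 CPM in MARK3i libraries, against 286, 299, 306 and 314 CPM in Controls. The MARK3i libraries were nearly equal to each other, and the level was 2.38-fold lower (−1.25 ± 0.05, adjusted p = 6.24e-16). Its match above lies 97 bases before a start site downstream of the outermost one. SLC7A1, the cationic transporter CAT1 for arginine and lysine, had 83.7, 76.1, 86.5 and 76.7 CPM in MARK3i libraries, against 179, 171, 154 and 149 CPM in Controls, and was 2.02-fold lower (−1.02 ± 0.07, adjusted p = 2.66e-12). Controls 1 and 2 lay above Controls 3 and 4, but all 4 were well above the MARK3i libraries.

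The remaining falls were smaller. SLC6A9, the glycine transporter GLYT1, changed by −0.81 ± 0.08 (adjusted p = 9.62e-09), although 7.9% of its exonic bases are shared with CCDC24 on the opposite strand. SLC1A4, the neutral amino acid transporter ASCT1, changed by −0.63 ± 0.07 (adjusted p = 2.02e-08). SLC38A1, the glutamine transporter SNAT1, had 176, 133, 163 and 139 CPM in MARK3i libraries, against 245, 237, 216 and 219 CPM in Controls, and changed by −0.59 ± 0.07 (adjusted p = 5.89e-07). The libraries of these 3 genes did not overlap between groups. SLC3A2, the heavy chain CD98hc that carries LAT1 and xCT to the membrane, had 180.4, 166, 149.9 and 172 CPM in MARK3i libraries, against 194, 211, 213 and 225 CPM in Controls (−0.34 ± 0.06, adjusted p = 5.90e-05). Its highest MARK3i library remained under its lowest Control.

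2 transporter genes did not follow. SLC38A2 (chr12:46358188-46372773, minus strand), the system A transporter SNAT2, which cells raise when amino acids are scarce, had 727, 594, 727 and 611 CPM in MARK3i libraries, against 537, 535, 456 and 456 CPM in Controls. It was 1.34-fold higher (0.42 ± 0.07, adjusted p = 3.61e-05), with no overlap, although MARK3i replicates 1 and 3 stood well above replicates 2 and 4. SLC7A11, the cystine importer xCT, had 77.5, 62.8, 82.7 and 65.8 CPM in MARK3i libraries, against 74.3, 75.4, 59.9 and 63.5 CPM in Controls. The groups overlapped, although MARK3i replicates 1 and 3 lay above every Control. The log2 fold change of 0.08 ± 0.09 (adjusted p = 0.474) had a 95% interval of −0.11 to 0.26.

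**Figure D2:**
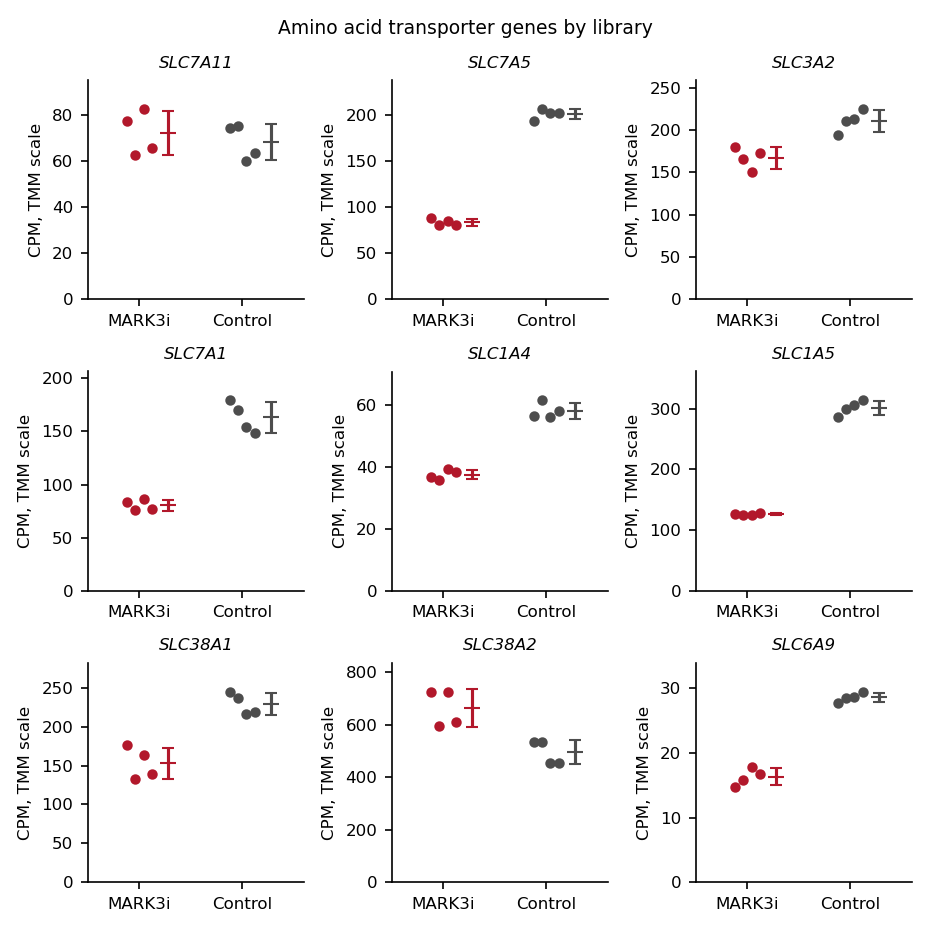
CPM on the TMM scale (y axis, from 0) of the 9 transporter genes in each MARK3i library (red, left) and each Control library (grey, right), with the mean and SD of 4 beside the points. The MARK3i points lie below the Control points for 7 genes and above them for SLC38A2, and the groups overlap for SLC7A11.

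Ratios between transporters within a library do not depend on how libraries were scaled. They are given as ratios of CPM per kilobase of exon, without a test, because the pairs were chosen after the single genes had been seen. LAT1 works as a dimer of the SLC7A5 light chain and the SLC3A2 heavy chain, and the SLC7A5 to SLC3A2 mRNA ratio was 0.662, 0.654, 0.761 and 0.629 in MARK3i libraries, against 1.34, 1.32, 1.27 and 1.20 in Controls. The ratio was thus lower in every MARK3i library than in every Control. Which chain had more mRNA cannot be read from it. The lengths used, 4764 bases for SLC7A5 and 6392 for SLC3A2, cover all annotated exons of a gene. The transcripts expressed may be shorter. The difference in log2 ratio was −0.93.

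The paralogs SLC38A2 and SLC38A1, which lie near each other on chromosome 12, moved in opposite directions. Their ratio was 6.36, 6.88, 6.85 and 6.78 in MARK3i libraries, against 3.37, 3.48, 3.25 and 3.20 in Controls, a difference of 1.01 on the log2 scale. Within each group this ratio varied little, although both levels varied between libraries. The SLC1A4 to SLC1A5 ratio was 0.139, 0.137, 0.151 and 0.144 in MARK3i libraries, against 0.0947, 0.0988, 0.0882 and 0.0886 in Controls, which shows the larger fall of SLC1A5. The SLC7A11 to SLC3A2 ratio, that of the 2 chains of xCT, was 0.285, 0.251, 0.366 and 0.253 in MARK3i libraries, against 0.254, 0.237, 0.187 and 0.187 in Controls, with overlap.

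**Figure D3:**
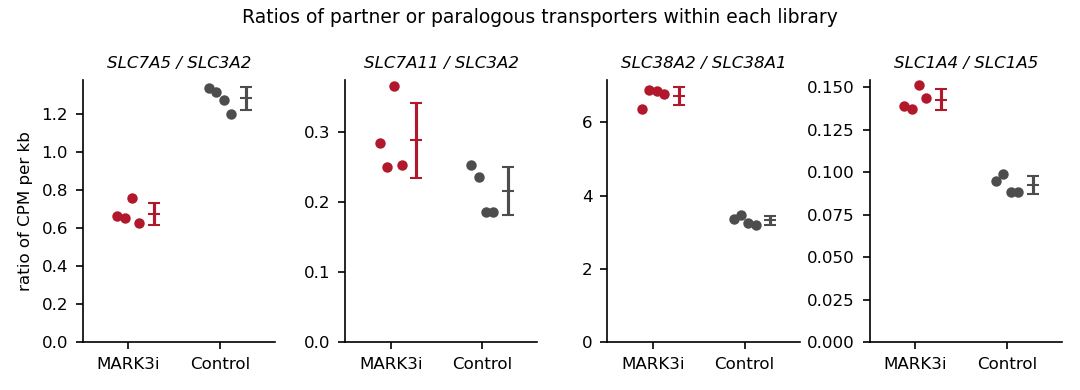
Ratio of CPM per kilobase (y axis, from 0) for 4 transporter pairs in each MARK3i library (red, left) and Control library (grey, right), with mean and SD of 4. The groups are apart for SLC7A5 to SLC3A2, SLC38A2 to SLC38A1 and SLC1A4 to SLC1A5, and overlap for SLC7A11 to SLC3A2.

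Of the 7 enzyme genes, GPT2, PCK2, BCAT1 and CBS were lower and CTH was higher. GPT2 (chr16:46884362-46931289, plus strand), the mitochondrial alanine aminotransferase, had 59.9, 60.9, 61.5 and 60.6 CPM in MARK3i libraries, against 146, 146, 148 and 151 CPM in Controls. The libraries of a group were almost the same, and the level was 2.43-fold lower (−1.28 ± 0.06, adjusted p = 1.21e-15). PCK2, the mitochondrial phosphoenolpyruvate carboxykinase, had 76.6, 75.5, 78.0 and 79.2 CPM in MARK3i libraries, against 119, 129, 136 and 132 CPM in Controls (−0.74 ± 0.06, adjusted p = 1.16e-10). GOT1, the cytosolic aspartate aminotransferase, did not pass, at 135 ± 8.36 CPM in MARK3i and 135 ± 1.20 CPM in Control libraries (SD, n = 4 each). Its log2 fold change was 0.01 ± 0.06 (adjusted p = 0.945), with a 95% interval of −0.11 to 0.12.

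BCAT1 (chr12:24810024-24949101, minus strand), the cytosolic branched-chain aminotransferase, had a low level in both groups. It had 5, 10, 7 and 7 counts in MARK3i libraries 1 to 4, against 49, 56, 52 and 47 counts in Control libraries 1 to 4. These correspond to 0.349, 0.45, 0.49 and 0.484 CPM in MARK3i and 3.84, 4.44, 4.26 and 3.67 CPM in Control libraries. All MARK3i libraries were below the filter's minimum and all Controls above it, so a gene this low in treated cells could enter the test only by being higher in Controls. Its log2 fold change of −3.17 ± 0.25, the largest in size of the 33, is therefore given as a description and without its p.

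The transsulfuration pair that makes cysteine from homocysteine gave less firm values. CBS, which forms cystathionine, had 28.4, 43.7, 16.3 and 22.5 CPM in MARK3i libraries, against 76.4, 55.3, 69.8 and 63.0 CPM in Controls. The groups did not overlap and the call was lower (−1.23 ± 0.30, adjusted p = 0.0126), but the MARK3i libraries spread more than for any other of these genes, with a coefficient of variation of 42.3%. The hg38 assembly carries a near-identical copy of CBS on the same chromosome, so reads may have been split or dropped, and the value is uncertain. CTH, which cleaves cystathionine, had 9.48, 8.54, 7.50 and 7.40 CPM in MARK3i libraries, against 7.67, 6.65, 3.69 and 4.53 CPM in Controls. It was called higher (0.55 ± 0.17, adjusted p = 0.00941), but Control replicate 1 lay above 2 MARK3i libraries, and without Control replicate 3 the call ended (0.39 ± 0.16, adjusted p = 0.0507).

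ASNS, asparagine synthetase, is the best known amino acid target of ATF4, but its count here was low. It had 81, 159, 87 and 62 counts in MARK3i and 75, 92, 81 and 78 in Control libraries, or 5.79 ± 1.19 CPM in MARK3i and 6.47 ± 0.633 CPM in Control libraries (SD, n = 4 each). The difference did not pass (−0.14 ± 0.15, adjusted p = 0.439). In GENCODE 44, 49.3% of its exonic bases also belong to a non-coding gene on the same strand. By default featureCounts leaves out reads that fall on 2 genes, and the sources used here do not state the setting, so the ASNS level is uncertain. Its window above holds TGATGAAA, the form found in the amino acid response element of this gene.

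Of the 4 remaining genes, for secreted factors, tRNA export and a receptor, 3 were lower. STC2 (chr5:173314723-173328447, minus strand), a secreted stanniocalcin glycoprotein linked to calcium and stress, had 4.32, 3.55, 3.57 and 3.80 CPM in MARK3i libraries, against 15.0, 16.1, 14.3 and 13.4 CPM in Controls, and was 3.87-fold lower (−1.95 ± 0.12, adjusted p = 1.24e-12). ADM2, which encodes the peptide hormone intermedin, had 38.6, 50.7, 49.1 and 42.1 CPM in MARK3i libraries, against 96.9, 89.6, 98.2 and 96.8 CPM in Controls (−1.07 ± 0.08, adjusted p = 9.75e-12). The groups were far apart for both genes. XPOT, the exporter of tRNA from the nucleus, had 168, 149, 177 and 151 CPM in MARK3i libraries, against 295, 297, 254 and 276 CPM in Controls (−0.80 ± 0.06, adjusted p = 1.17e-10). VLDLR, the very low density lipoprotein receptor, averaged 8.86 ± 1.57 CPM in MARK3i and 7.48 ± 0.733 CPM in Control libraries (SD, n = 4 each) and did not pass (0.26 ± 0.14, adjusted p = 0.11). It was called higher on total counts (0.36 ± 0.14, adjusted p = 0.0306) and without MARK3i replicate 1 (0.33 ± 0.13, adjusted p = 0.0353).

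**Figure D4:**
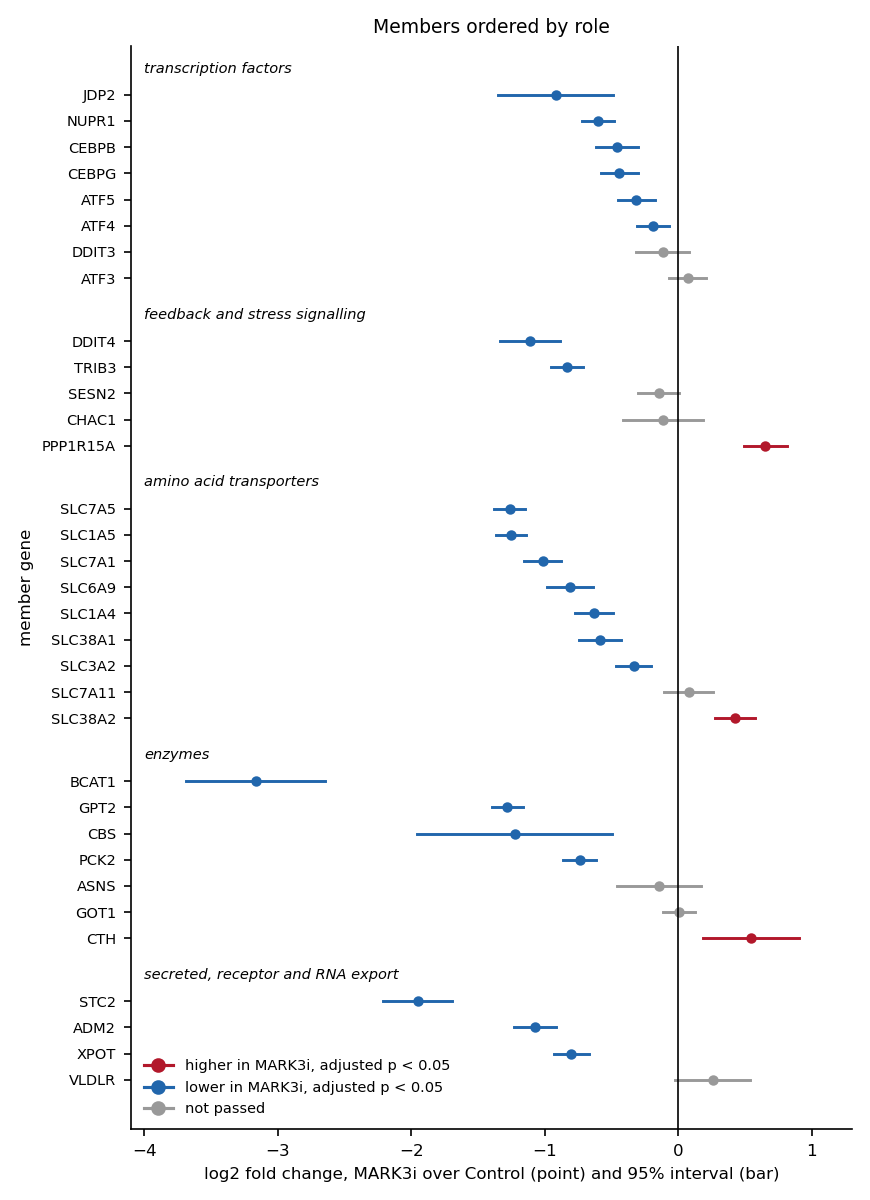
Log2 fold change, MARK3i over Control (point), with its 95% interval (bar) for the 33 genes, ordered by role; blue is lower and red is higher at an adjusted p under 0.05, grey did not pass. Points run from −3.17 for BCAT1 to 0.65 for PPP1R15A, and the intervals are widest for BCAT1, CBS and JDP2.

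Levels of different genes were compared per kilobase of exon, counting all annotated exons of a gene. Where the transcripts expressed are shorter than that, the level is understated, so the order below holds on this scale only. NUPR1, for example, was given 5508 bases. ATF4 had the highest value of the 33 in both groups, at 183 CPM per kilobase in MARK3i and 209 in Control libraries. In Controls it was followed by SLC1A5 at 90.4, and by SLC38A2 and TRIB3 at 76.2 and 76.1 CPM per kilobase, a difference well inside the spread of SLC38A2 between libraries. In MARK3i libraries the second place was taken by SLC38A2 at 102 CPM per kilobase, and SLC1A5 was 5th at 37.9. SLC7A5 was 14th in MARK3i and 6th in Control libraries, and PPP1R15A was 15th in MARK3i and 20th in Control libraries. At the low end, JDP2, VLDLR and BCAT1 stayed under 0.6 CPM per kilobase in both groups. Summed over the 33 genes, CPM came to 2988 to 3157 in MARK3i libraries, against 4009 to 4123 in Controls, without overlap.

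Within groups, several of these genes shifted together between libraries. The median coefficient of variation was 8.69% in MARK3i and 6.04% in Control libraries. SLC38A2, SLC38A1, SLC7A1, SLC7A11 and XPOT were all higher in Control replicates 1 and 2 than in 3 and 4, and also higher in MARK3i replicates 1 and 3 than in 2 and 4. ATF4, DDIT3 and CHAC1 showed the opposite order in both groups. The share of all tested genes with either order in both groups was not counted, so these genes are only described. Such a division between Control replicates 1 and 2 and replicates 3 and 4 was present for 20 of the 33 genes (60.6%) and for 51.8% of all tested genes, so it was not particular to them. For the division of MARK3i replicates, which was chosen after seeing these values, the shares were 42.4% and 45.8%.

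Related genes outside the 33 were described from 7 lists, of whose 112 tested genes 48 (42.9%) were lower and 24 (21.4%) higher, with a median log2 fold change of −0.11, against 28.3% lower and 29.8% higher among all tested genes. On total counts 41 were lower and 37 higher. Among other amino acid transporters, 9 of 21 tested were lower and 3 higher (median −0.17). The lower ones include SLC36A4, which passed the filter through the Control libraries alone. The higher ones include SLC7A9, which passed through the MARK3i libraries alone. As with BCAT1, the filter favoured these directions, so both genes add no support to these counts or to the 48 and 24 above. SLC43A1, the leucine transporter LAT3, had 9.41, 8.22, 8.34 and 8.44 CPM in MARK3i libraries, against 28.7, 27.2, 26.8 and 30.6 CPM in Controls (−1.72 ± 0.09, adjusted p = 4.79e-14). SLC7A6, a carrier of basic and neutral amino acids (−1.37 ± 0.18), and SLC6A15, a carrier of branched-chain amino acids (−0.90 ± 0.11), fell too, whereas SLC38A9 (0.33 ± 0.11), the lysosomal arginine sensor, rose.

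Other enzymes of amino acid metabolism were lower in 9 of 14 tested cases (64.3%) and higher in 0 (median −0.36). Of all tested genes, 28.3% were lower and 29.8% higher. GLUL, glutamine synthetase, averaged 176 ± 11.1 CPM in MARK3i and 391 ± 12.1 CPM in Control libraries (SD, n = 4 each; −1.15 ± 0.06, adjusted p = 9.28e-15). GOT2 (−0.46 ± 0.06) and BCAT2 (−0.39 ± 0.06), the mitochondrial counterparts of GOT1 and BCAT1, fell as well. Among enzymes of methionine, cysteine and glutathione, 7 of 12 were lower (58.3%) and 4 higher (33.3%), the latter near the share of all tested genes. The γ-glutamylcysteine ligase subunit genes GCLC (0.35 ± 0.06) and GCLM (0.33 ± 0.07) rose, whereas MAT2A, which makes S-adenosylmethionine, fell (−0.37 ± 0.06).

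Upstream of ATF4, 7 of 20 genes of the eIF2 kinases, eIF2 and eIF2B were lower, near the share of all tested genes (28.3%), and 12 were not called (median −0.04). The 1 higher gene was EIF2AK4, the amino acid sensing kinase GCN2 (0.21 ± 0.07, adjusted p = 0.00899), with overlapping libraries, and its activator GCN1 fell (−0.54 ± 0.05). Of 21 tested genes by which mTORC1 senses amino acids, 8 were higher (38.1%) and 6 lower (28.6%), near the 29.8% and 28.3% of all tested genes (median 0.09). SESN3, a sestrin like SESN2, had 94.8, 82.7, 98.7 and 78.2 CPM in MARK3i libraries, against 40.7, 38.3, 34.3 and 34.1 CPM in Controls, and rose (1.26 ± 0.08, adjusted p = 1.72e-12). WDR24, a subunit of the GATOR2 complex, fell (−0.90 ± 0.07).

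Further stress-response targets went both ways, 7 of 14 tested being lower and 5 higher (median −0.34). EIF4EBP1, the translation repressor 4E-BP1 and an ATF4 target, averaged 47.0 ± 2.61 CPM in MARK3i and 115 ± 7.94 CPM in Control libraries (SD, n = 4 each; −1.29 ± 0.07, adjusted p = 2.31e-14). DDIT4L, a paralog of DDIT4, also fell (−1.95 ± 0.08). The ubiquitin ligase adaptor gene KLHL24 (1.06 ± 0.07), the endoplasmic reticulum autophagy receptor gene CCPG1 (0.81 ± 0.13) and the autophagosome gene MAP1LC3B (0.41 ± 0.06) rose. Among paralogs and regulators of the factors above, 3 of 10 tested were higher and 3 lower. Both shares were near those of all tested genes (29.8% higher and 28.3% lower). TRIB1, a relative of TRIB3, averaged 25.0 ± 2.23 CPM in MARK3i and 74.5 ± 5.76 CPM in Control libraries (SD, n = 4 each; −1.58 ± 0.08, adjusted p = 1.03e-14), and BTRC, whose protein marks ATF4 for degradation, rose (0.53 ± 0.09).

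**Figure D5:**
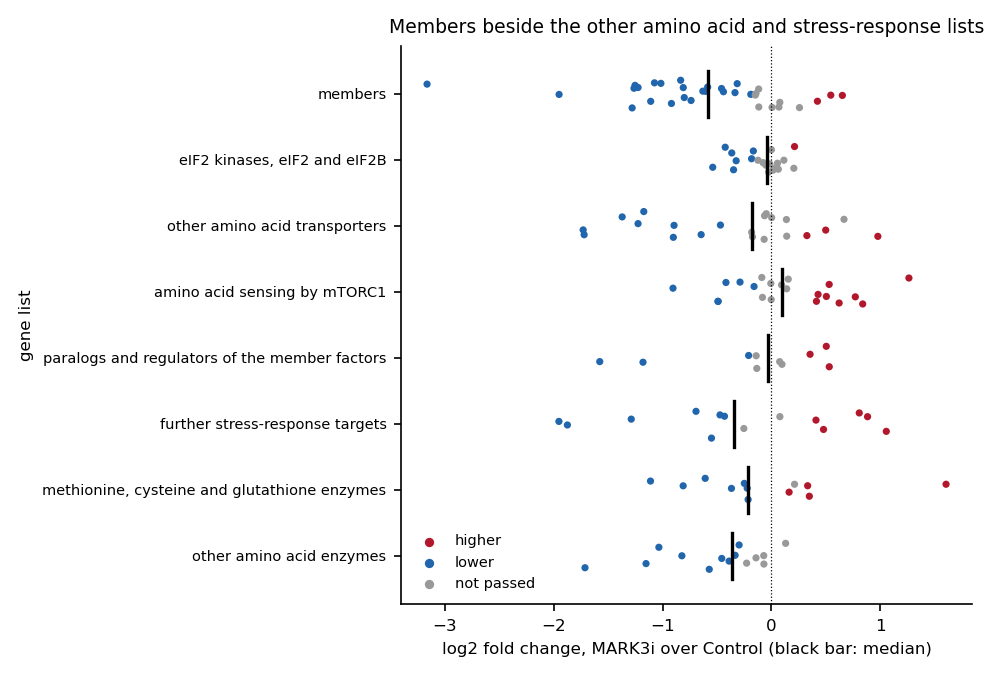
Log2 fold change, MARK3i over Control (x axis), of each tested gene of the 33 (top row) and of 7 related lists, coloured blue for lower, red for higher and grey for not passing, with the median as a black bar. The median is −0.59 in the top row and between −0.36 and 0.09 in the others. BCAT1 and SLC36A4 passed the filter only through the Control libraries, and SLC7A9 only through the MARK3i libraries.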

How the data were processed

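Whole-number counts per gene were deposited for 8 samples, 1 file each. The authors aligned reads to hg38, made the counts with featureCounts and ran DESeq2, per the submitters' processing notes and the series text. Aligner, annotation, versions, strandedness and filters are not stated there. Symbols, coordinates and exon lengths came from GENCODE 44 on hg38, which held 58207 of the 58735 identifiers (the 528 others had at most 0.0979% of a library's counts). No line lacked a gene. Groups came from the sample titles.

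The counts went into edgeR 4.0.16 (R 4.3.3) with filterByExpr, TMM factors, glmQLFit with robust dispersion and glmQLFTest on the group, with Benjamini-Hochberg adjustment over 16452 genes and 0.05 as threshold. The standard error is the absolute log2 fold change over the square root of F. The common biological coefficient of variation was 7.2%, and the median standard error 0.096. The procedure was tested on simulated data in which few genes changed. In the real data 58.0% of tested genes were called, so the simulation does not test how well scaling worked here. Promoter sequences came from RefSeq (GRCh38.p14). Counting error, spread and depth set the precision.

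Alternatives were RLE factors, total counts, no filter, 1 CPM in 4 libraries, DESeq2 1.42.0, the replicate number as a block and each library left out. All 33 genes are named, and from each of 7 other lists up to 4 called genes per direction with the smallest p could be named. The genes and lists were chosen with earlier results of these data known. Transporter ratios and divisions within groups were chosen after seeing values.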

Additional observations from a re-analysis of the deposited data

Results flagged for a closer look

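In 3 of 66 groups of 4 libraries (33 genes in 2 groups), 1 library lay so far from the other 3 that its gap to the nearest exceeded Dixon's critical share of the group's range, and chance alone flags about 1 in 20 groups. All 3 were Control groups. PPP1R15A had 35.5 CPM in Control replicate 2, against 38.1 to 38.7 CPM in the other Controls. ADM2 had 89.6 CPM in Control replicate 2, against 96.8 to 98.2 CPM in the others. CHAC1 had 9.13 CPM in Control replicate 4, against 6.57 to 6.97 CPM in the others, and without that library its log2 fold change was 0.00.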

How the results depend on the processing

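Of the 33 genes, 25 kept their direction and their side of the threshold under all 14 alternatives. The number called lower was 21 to 22 under all of them, and the number called higher was 3 except for 5 on total counts and a range of 2 to 4 when 1 library was left out. For the genes of the 7 other lists, those called higher numbered 37 on total counts, against 24. On total counts ATF4 lost its call and ATF3 and VLDLR gained one, as the report gives. The reversals were of genes that never passed and lay near 0. GOT1, at 0.0056, was at −0.007 with RLE factors, −0.0023 with no filter and −0.0071 with DESeq2, and ranged from −0.0405 to 0.0323 when 1 library was left out. SLC7A11 ranged from −0.0044 (without MARK3i replicate 3) to 0.1439, and CHAC1 from −0.1864 to 0.0007 (without Control replicate 4).

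The labels do not say that the replicate numbers pair the samples. Deviations of same-numbered libraries correlated at 0.131, −0.088, −0.053 and 0.084, and such small and few values cannot decide whether samples were paired. With the replicate block, 21 genes were lower and 3 higher, and the adjusted p of CBS was 0.0559 (−1.29 ± 0.36). Depth limited JDP2 and BCAT1 most, with 18 and 5 counts in their lowest libraries.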
